A study of Mus musculus with 9 samples.

Results

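The mitochondrial ribosomal proteins were taken as every gene of the deposited count table whose symbol is Mrpl or Mrps followed by a number and at most 1 letter from a to c. The rule found 78 of 49315 genes, 49 named for the large subunit (Mrpl) and 29 for the small subunit (Mrps), on 17 chromosomes. The cells were the mouse macrophage line RAW 264.7. With RANKL, the cytokine that drives osteoclast formation, such cells can become osteoclast-like. All 3 groups were grown for 24 h, given RANKL at 20 ng/ml, and collected 24 h after the step at 48 h in which the groups parted. The control group received no pamidronate and is labelled as untreated, although RANKL appears in the growth notes of each of the 9 samples. The pamidronate group received 140 µM of this nitrogen-containing bisphosphonate, an inhibitor of farnesyl diphosphate synthase. The third group received 140 µM pamidronate with 5.25 µM GGOH, geranylgeraniol, an isoprenoid alcohol that cells can convert to geranylgeranyl diphosphate. The names of the third group's libraries also hold a percentage, which is not explained there. Each group had 3 libraries of 1 cell line. Only the control titles say that these are biological replicates, so p-values measure the spread between these samples, which may be technical.

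Mitochondria keep their own ribosomes, which translate the few mRNAs of the mitochondrial genome into membrane subunits of the respiratory chain and ATP synthase. The ribosomal RNAs come from mitochondrial DNA, whereas every protein of the particle is encoded in the nucleus, made in the cytosol and imported. Some of these proteins descend from bacterial ribosomal proteins and others exist only in mitochondrial ribosomes, and a surplus of unassembled protein is generally degraded.

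The 9 libraries held 14356069 to 18957968 counts. Genes with any count numbered 20558 to 22349 in the control libraries, 24287 to 26635 with pamidronate and 25202 to 28054 with GGOH added. All 78 members passed the filter on low counts that left 15963 genes for testing. Of 8 macrophage markers, 8 reached 1 CPM, the count relative to the TMM-scaled library size, in every group, but their summed level was 15210 to 19930 CPM in the control libraries, 4340 to 6131 with pamidronate and 6318 to 9253 with GGOH added. Lyz2 made up most of that sum, at group means of 13710, 4303 and 5895 CPM. Cd68 alone was lower with GGOH added (460 CPM) than with pamidronate (629 CPM). Of 6 osteoclast markers, 4 reached 1 CPM, with sums of 31.5 to 44.9, 55.3 to 70.9 and 82.6 to 147 CPM. These 4 did not move together. In the same order, Mmp9 had group means of 27.1, 17.7 and 86.8 CPM and Ctsk 4.70, 32.9 and 10.8. Acp5 had 5.27, 7.36 and 3.42 CPM and Dcstamp 2.56, 5.65 and 4.96. No marker of fibroblasts, epithelium, T cells or B cells reached 1 CPM as a group mean. Genes of the mitochondrial genome took 10.4 to 10.8% of the counts in the controls, 3.71 to 5.19% with pamidronate and 5.43 to 6.31% with GGOH added. The shares of Malat1 and Gm26917 moved the other way. The part of these shifts in the results below was not tested, except that removing the mitochondrially encoded genes, Malat1 and Gm26917 before scaling, an alternative chosen after seeing the data, left 19 members higher and 31 lower with pamidronate, against 20 and 26 with them.

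As a class, the members made up 0.1978 to 0.2051% of the counts in the controls, 0.2038 to 0.2115% with pamidronate and 0.2053 to 0.2119% with pamidronate + GGOH. The pamidronate range overlapped both others, and the lowest pamidronate + GGOH library lay just above the highest control. After TMM scaling, the summed level was 2164 ± 31.4 CPM in the controls, 2128 ± 27.2 with pamidronate and 1906 ± 46.5 with GGOH added (SD, n = 3). The sum with GGOH added was below both other groups in all 3 libraries on that scale. Without the mitochondrially encoded genes, Malat1 and Gm26917, the members' median log2 fold change for pamidronate + GGOH against control was -0.2047. With these genes it was -0.2039. The reason why the scaled sum with GGOH added was below the control, while the share was not, was not tested. In bulk RNA, fewer cells with a given RNA and less of that RNA per cell cannot be told apart.

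Levels per transcript length differed widely within the particle. On the deposited TPM scale, the highest large-subunit members over the 9 libraries were Mrpl34, a small bacterial-type protein, at a mean of 132, and Mrpl42, a mitochondria-specific protein, at 109. The lowest were Mrpl53 at 1.85 and Mrpl21 at 6.50. Among the small-subunit symbols, Mrps21 led at 85.5 TPM and Mrps30 followed at 61.2, and the lowest were Mrps25 at 4.40 and Mrps5 at 4.59. Mrpl42 was at 113 ± 7.47 in the controls, 105 ± 6.79 with pamidronate and 110 ± 17.0 with GGOH added (SD, n = 3), and these TPM values did not separate. On scaled counts it was at 33.2 ± 1.93, 28.2 ± 2.43 and 25.6 ± 3.57 CPM, with both treated groups below all controls. Pamidronate + GGOH was lower than the control (log2 -0.38, adjusted p = 0.0134, edgeR quasi-likelihood test), a result that depended on the scaling and filter. The median large-subunit gene lay at 24.5 ± 1.61, 27.4 ± 1.66 and 27.6 ± 1.10 TPM in control, pamidronate and pamidronate + GGOH. The median small-subunit gene lay at 14.1 ± 0.454, 15.9 ± 0.246 and 15.4 ± 0.310 TPM. The large-subunit median was therefore above the small-subunit median in each of the 9 libraries. TPM is a share of all deposited RNA, of which the abundant mitochondrial RNAs took less in the treated groups, so the changes below are taken from scaled counts.

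Pamidronate moved individual members in opposite directions while their sum stayed level. Compared with the control, 20 members rose and 26 fell at an adjusted p under 0.05 (edgeR quasi-likelihood test, Benjamini-Hochberg adjustment over all 15963 genes), and 32 were not called. That is 25.6% higher and 33.3% lower, where 36.2% of all tested genes were higher and 32.9% lower. The counts depend on the scaling. Upper-quartile factors, which moved the median of all genes by 0.19 (log2), gave 25 higher and 15 lower members, and the 5 CPM filter gave 25 and 20 of 75. Leaving out control replicate 2 or control replicate 3 reduced the members called higher from 20 to 13 each time. The median log2 fold change of the members was -0.09, against 0.08 for all genes tested. A scaling factor moves both medians alike, but the filter does not. The members' median minus that of all genes was -0.18 with the default filter, 0.0094 with the 5 CPM filter and -0.40 without a filter.

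The changes of the members were small beside those of all genes tested, which was not particular to the members. With pamidronate, 3 of 78 members (3.85%) differed at least 2-fold from the control, against 39.4% of all genes tested. The middle 50% of members spanned 0.70 log2 units and that of all genes 1.55. With the filter set at 5 CPM, which leaves 10498 genes of more comparable abundance, these spans were 0.70 and 1.26, and 30.8% of all genes still differed at least 2-fold. Of the cytosolic ribosomal proteins 3.53% differed at least 2-fold with pamidronate, and their middle 50% spanned 0.23. For nuclear genes of oxidative phosphorylation these values were 5.06% and 0.58. Other mitochondrial lists changed more, with 12% past 2-fold among assembly and rRNA-modification factors and 100% among mRNAs of the mitochondrial genome. In 53 of 78 members (67.9%) the 3 control and 3 pamidronate libraries did not overlap, and this held for 73.4% of all genes.

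**Figure D1:**
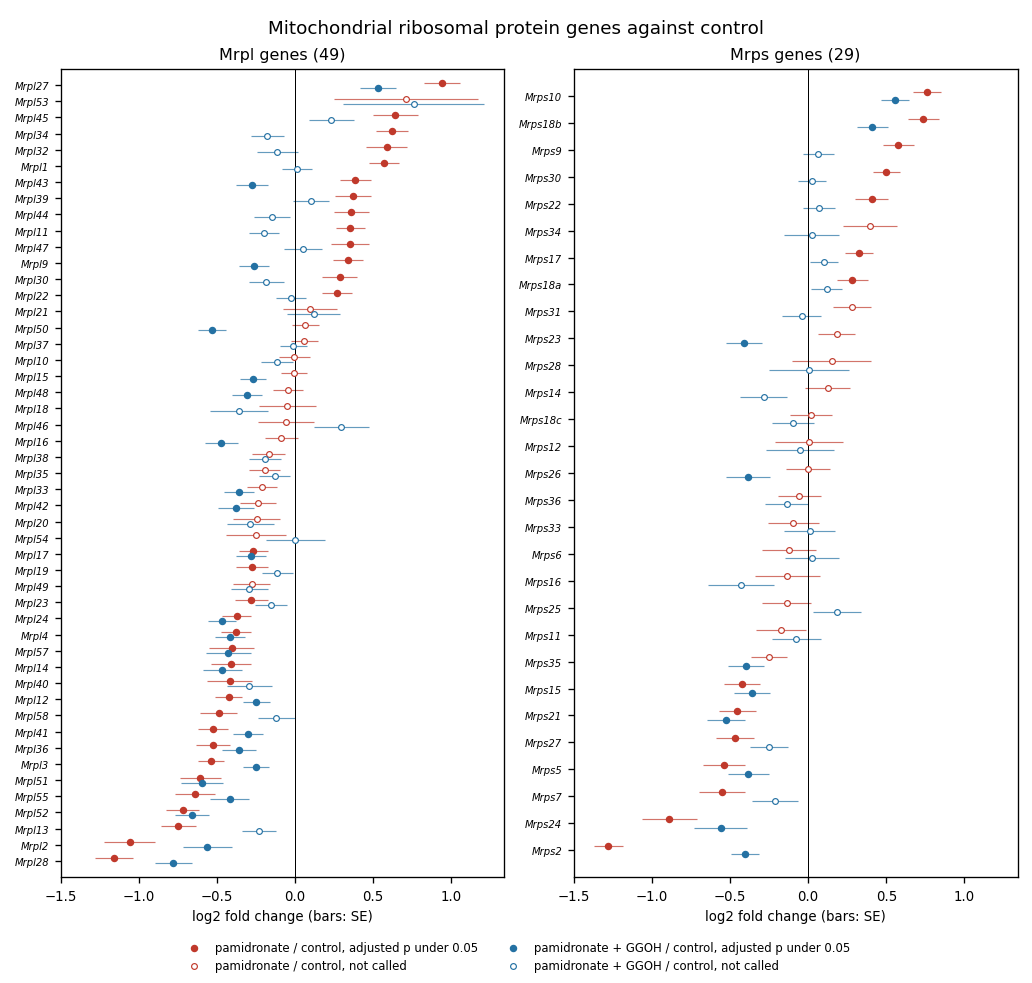
Log2 fold change (x axis, bars give the SE) of each of the 49 Mrpl genes (left) and 29 Mrps genes (right), ordered by the pamidronate effect. Red points compare pamidronate with control, blue points pamidronate + GGOH with control, and filled points have an adjusted p under 0.05. The pamidronate effects run from -1.28 for Mrps2 to 0.94 for Mrpl27.

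The member that fell most was Mrps2 (ENSMUSG00000035772, chr2:28468066-28471178, GRCm38), the mitochondrial form of bacterial protein S2 in the small subunit. Its scaled counts were 52.6, 59.2 and 56.8 CPM in the controls and 24.3, 23.3 and 21.9 CPM with pamidronate. Every pamidronate library was therefore far below every control. The fold change was 2.43-fold lower (log2 -1.28, SE 0.09, adjusted p = 2.97e-08). Mrpl28 (chr17:26123520-26126613), of the bacterial L28 family, read 32.4, 37.5 and 36.1 CPM in the controls and 13.9, 16.4 and 17.1 with pamidronate. Again the groups were apart, and the level was 2.23-fold lower (log2 -1.16, SE 0.12, adjusted p = 8.22e-07). Mrpl2 (chr17:46646229-46650139), the counterpart of bacterial L2 near the peptidyl transferase centre, read 19.3, 19.6 and 20.1 CPM against 10.6, 8.41 and 9.23. It fell 2.08-fold (log2 -1.06, SE 0.16, adjusted p = 3.84e-05). These 3 were the members past 2-fold.

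Other large decreases were seen in both subunits. Mrps24, the mitochondrial form of bacterial S3, had log2 -0.89 (SE 0.17), Mrpl13 -0.75 (SE 0.11) and Mrpl52, a mitochondria-specific protein, -0.72 (SE 0.11), each with the 2 groups apart. Mrpl3, the counterpart of bacterial L3, fell from 65.4 ± 2.73 to 45.0 ± 1.93 CPM (SD, n = 3; log2 -0.54, adjusted p = 4.58e-05). Mrpl58, a peptidyl-tRNA hydrolase that became part of the large subunit, fell from 27.1 ± 1.53 to 19.3 ± 2.89 CPM (log2 -0.49, adjusted p = 0.00211). Mrpl12, the stalk protein that recruits translation factors, fell from 51.0 ± 1.82 to 38.0 ± 2.94 CPM (log2 -0.42, adjusted p = 0.000536). Mrpl41 fell from 40.9 ± 2.63 to 28.4 ± 1.71 CPM (log2 -0.52, adjusted p = 0.000247).

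The member that rose most was Mrpl27 (ENSMUSG00000024414, chr11:94653767-94660089), the counterpart of bacterial L27 at the peptidyl transferase centre. It read 9.52, 9.80 and 8.35 CPM in the controls and 18.3, 17.4 and 17.5 with pamidronate. All 3 treated libraries were close to each other and well above the controls, 1.92-fold higher (log2 0.94, SE 0.12, adjusted p = 5.16e-06). Mrps10 (chr17:47368887-47381417), of the small-subunit head, read 32.6, 30.1 and 26.9 CPM against 50.4, 50.3 and 51.4. It rose 1.70-fold (log2 0.76, SE 0.09, adjusted p = 3.26e-06). Mrps18b (chr17:35910379-35916389) read 32.1, 27.6 and 33.3 CPM against 48.9, 55.3 and 50.9, a rise of 1.67-fold (log2 0.74, SE 0.10, adjusted p = 1.18e-05). In the GENCODE M21 annotation 30.5% of its exon bases lie in exons of other genes, and for Mrpl27 7.61%. The sources used here give neither the counting tool nor its strand setting, so reads in such bases could come from either gene.

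Mrpl45, which ties the ribosome to the inner membrane, rose from 92.9, 68.3 and 65.6 CPM to 110, 115 and 129 (log2 0.64, SE 0.14, adjusted p = 0.0015), with the controls spread more widely than those of most members. Mrpl34 rose from 27.9 ± 1.74 to 43.0 ± 2.65 CPM (SD, n = 3; log2 0.62, adjusted p = 7.69e-05). Mrpl32, whose import form is trimmed by the m-AAA protease before assembly, rose from 27.0 ± 4.73 to 40.5 ± 2.62 CPM (log2 0.59, adjusted p = 0.00102). Mrpl53 had a log2 fold change of 0.71 but was not called; it lay below 1 CPM in every library and shares 88.0% of its exon bases with other genes. Across the 45 members without any exon overlap in GENCODE M21, a restriction chosen after seeing the data, 13 rose (28.9%) and 14 fell (31.1%). Among all tested genes 36.2% rose and 32.9% fell.

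**Figure D2:**
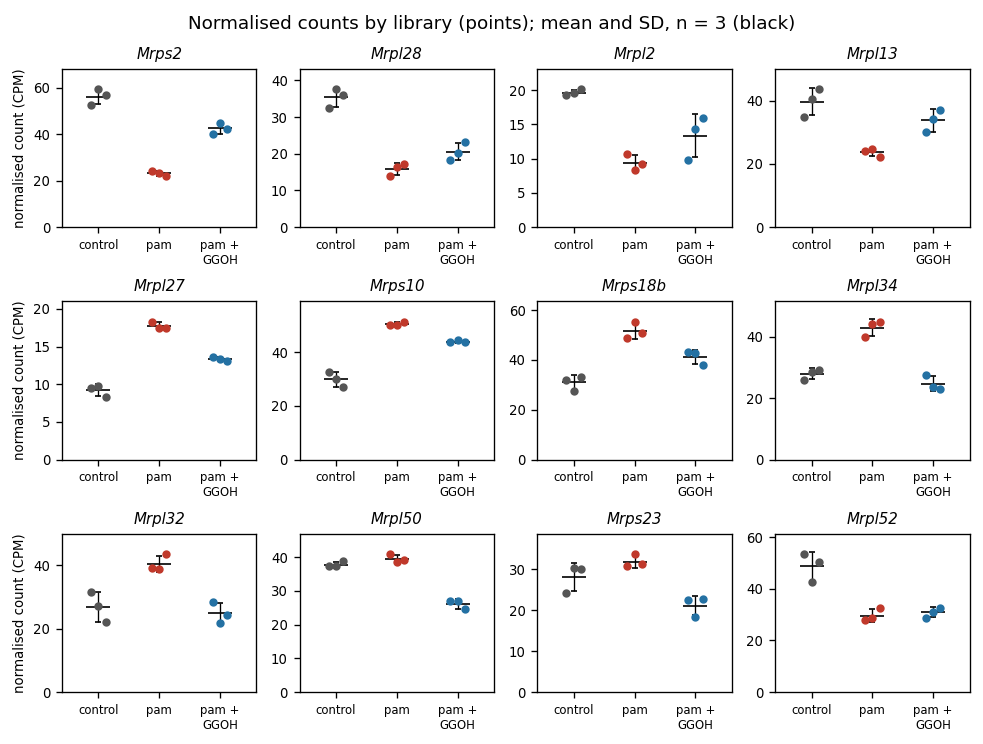
Normalised counts (CPM, y axis from 0) of 12 members in each of the 9 libraries, with group means and SD in black. Mrps2, Mrpl28 and Mrpl2 drop with pamidronate. With GGOH added, Mrps2 and Mrpl28 stand higher in all 3 libraries, while Mrpl2 has a higher mean but overlaps the pamidronate libraries. Mrpl27, Mrps10 and Mrps18b stay above the control, and Mrpl50 is lower in the 3 pamidronate + GGOH libraries than in the other 6.

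Members with a shared place or ancestor in the particle did not move as blocks. Mammals have several homologues of bacterial S18. Mrps18b rose as above, and Mrps18a, which sits in the large subunit in spite of its name, rose from 40.1 ± 1.60 to 48.8 ± 3.35 CPM (SD, n = 3; log2 0.28, adjusted p = 0.0205). This call did not survive leaving out any 1 control library, where adjusted p was 0.063 to 0.098. Mrps18c had 13.7 ± 1.51 against 13.9 ± 0.496 CPM (adjusted p = 0.915) and was not called. Mrps30, also a large-subunit protein by structure, rose from 32.3, 34.1 and 34.4 to 45.6, 50.4 and 46.7 CPM (log2 0.50, adjusted p = 0.000146). Of the stalk and stalk base, Mrpl12 fell, Mrpl11 rose from 30.0 ± 1.46 to 38.4 ± 0.912 CPM (log2 0.35, adjusted p = 0.00395), and Mrpl10 had 29.0 ± 1.81 against 28.9 ± 0.348 CPM. Leaving out control replicate 3 ended the Mrpl11 call, at an adjusted p of 0.050. The central protuberance was followed only through Mrpl38, Mrpl40, Mrpl46 and Mrpl48. Mrpl40 fell from 9.93 ± 0.966 to 7.43 ± 0.442 CPM (log2 -0.42, adjusted p = 0.0181). This call was lost without control replicate 2 or without pamidronate replicate 3, and also with upper-quartile factors or the 5 CPM filter. Mrpl38, Mrpl46 and Mrpl48 were not called, with log2 values of -0.17, -0.06 and -0.04. Mrps12, the decoding-site protein, had 4.12 ± 0.745 against 4.15 ± 0.899 CPM. Mrps36, now regarded as a component of the 2-oxoglutarate dehydrogenase complex, had 13.0 ± 1.20 against 12.5 ± 1.28 CPM.

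For the 6 members at the ends of the pamidronate ranking, the 150 bases before the RefSeq start are printed so that their upstream sequences can be set beside their opposite responses. They are taken from RefSeq promoter windows of GRCm38.p6, on the gene's strand. The RefSeq start can differ from that of the deposited gene model. For Mrps10 it lies 310 bases inside the model and for Mrpl27 24 bases, so those stretches lie wholly or partly inside the gene as given above. Capitals mark matches on either strand to motifs searched: the NRF1 core GCATGCGC, the ETS core CCGGAAG as bound by GABPA, the YY1 core AAGATGGC, the SP1 box GGGCGG, the CCAAT box, the E-box CACGTG and TATAAA.
Mrps2 (chr2:28467916-28468065, + strand): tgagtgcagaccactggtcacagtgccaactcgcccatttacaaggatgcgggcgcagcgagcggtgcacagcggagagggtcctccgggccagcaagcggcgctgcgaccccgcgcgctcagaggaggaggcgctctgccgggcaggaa
Mrpl28 (chr17:26123353-26123502, + strand): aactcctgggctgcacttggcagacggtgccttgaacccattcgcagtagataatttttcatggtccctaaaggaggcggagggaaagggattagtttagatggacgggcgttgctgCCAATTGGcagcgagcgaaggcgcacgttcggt
Mrpl2 (chr17:46646079-46646228, + strand): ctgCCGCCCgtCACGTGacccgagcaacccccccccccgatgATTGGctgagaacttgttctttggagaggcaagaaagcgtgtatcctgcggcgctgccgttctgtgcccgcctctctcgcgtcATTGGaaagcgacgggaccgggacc
Mrpl27 (chr11:94653641-94653790, + strand): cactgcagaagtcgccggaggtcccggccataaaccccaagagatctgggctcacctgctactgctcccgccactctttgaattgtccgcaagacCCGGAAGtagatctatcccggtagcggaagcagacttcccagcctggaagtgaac
Mrps10 (chr17:47369047-47369196, + strand): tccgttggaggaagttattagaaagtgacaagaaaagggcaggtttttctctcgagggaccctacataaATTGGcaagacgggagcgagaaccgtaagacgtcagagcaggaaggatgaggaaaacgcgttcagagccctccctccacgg
Mrps18b (chr17:35916441-35916590, - strand): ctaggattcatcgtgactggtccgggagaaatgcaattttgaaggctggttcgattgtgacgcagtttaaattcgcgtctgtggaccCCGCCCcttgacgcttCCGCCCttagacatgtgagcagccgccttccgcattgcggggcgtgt
Mrps2 to Mrpl2 fell and Mrpl27 to Mrps18b rose. Of these stretches, that of Mrps2 held no match, that of Mrpl28 held CCAAT on both strands in overlapping letters, and that of Mrpl27 held the ETS core. For Mrps18b the longer window counted below also held an NRF1 core and an ETS core, outside the stretch printed.

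Windows of 250 bases before to 50 after the start were found for 69 of 78 members and for 10321 tested genes. The ETS core was in 36.2% of the members' windows and in 18.5% of all windows. The YY1 core was in 17.4% and 4.82%, and the NRF1 core in 11.6% and 5.34%. The SP1 box was less frequent in members, at 49.3% against 62.6%, and CCAAT was in 39.1% and 38.7%. The E-box, a site type bound by Myc among others, was in 7.25% and 10%, and TATAAA in 5.80% and 7.18%. Median GC content was 58.3% in members and 60.7% in all windows. Among the members that rose with pamidronate, 7 of 20 windows held the ETS core, as did 8 of 23 among those that fell and 10 of 26 among those not called. The NRF1 core was in 5 of 20, 1 of 23 and 2 of 26. These matches describe letters and not bound sites.

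In the annotation 33 members start within 1000 bases of a coding gene on the opposite strand that runs the other way. Of these, 9 rose (27.3%) and 11 fell (33.3%) with pamidronate. Of the 45 without such a neighbour 11 rose (24.4%) and 15 fell (33.3%). Among all tested genes 36.2% rose and 32.9% fell. Mrps12 shares its start region with Sars2, the mitochondrial seryl-tRNA synthetase. Sars2 rose from 6.05 ± 0.294 to 9.07 ± 0.636 CPM (SD, n = 3; log2 0.58, adjusted p = 0.00394), whereas Mrps12 had log2 0.01. Mrpl46 and Mrps11 are each other's neighbours and neither was called, with -0.06 and -0.18.

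The large and small subunit were compared by the counts and medians of their genes. With pamidronate, 13 of 49 Mrpl genes rose (26.5%) and 19 fell (38.8%), with a median log2 of -0.19. Of 29 Mrps genes 7 rose and 7 fell (24.1% each), with a median of 0.00. Among all tested genes 36.2% rose and 32.9% fell. With GGOH added to pamidronate, 5 Mrpl genes were higher (10.2%) and 15 lower (30.6%) than with pamidronate alone. Of the Mrps genes 1 was higher (3.45%) and 9 were lower (31.0%), where 25.2% and 23.6% of all tested genes were higher and lower. The Mrpl and Mrps medians in this comparison were -0.04 and -0.14, with the small subunit the lower. Against the control, pamidronate + GGOH gave 1 higher (2.04%) and 22 lower (44.9%) Mrpl genes (median -0.25). It gave 2 higher (6.90%) and 8 lower (27.6%) Mrps genes (median -0.08). The shares of all tested genes were 26.3% and 26%. The summed Mrpl level was 1536 ± 33.1, 1464 ± 27.8 and 1308 ± 33.7 CPM in control, pamidronate and pamidronate + GGOH (SD, n = 3). That of the Mrps genes was 628 ± 1.70, 664 ± 3.93 and 599 ± 14.4 CPM. The ratio of the 2 sums, which no scaling factor changes, was 2.38 to 2.50 in the controls, 2.17 to 2.26 with pamidronate and 2.16 to 2.22 with GGOH added. All 6 treated libraries lay below the 3 controls. Counts weight long transcripts more, and on the TPM scale the ratio was 2.69 to 2.93, 2.65 to 2.91 and 2.61 to 2.63, so that control and pamidronate overlapped. When Mrps18a and Mrps30 are counted with the large subunit, where they sit, and Mrps36 with neither, the difference between the subunit medians with pamidronate was -0.12 in place of -0.19. With that assignment the ratio of summed CPM was 2.90 to 3.02 in the controls, 2.77 to 2.89 with pamidronate and 2.67 to 2.75 with GGOH added. The ratio of summed TPM was then 3.42 ± 0.156, 3.59 ± 0.188 and 3.31 ± 0.0372 (SD, n = 3). On that scale the pamidronate mean was above the control mean, with overlap. The direction of the ratio with pamidronate therefore depends on the scale and the assignment. With GGOH added, the mean ratio was below the control mean on both scales under both assignments. On the TPM scale with this assignment those libraries overlapped, at 3.27 to 3.34 against 3.27 to 3.58 in the controls. Of 46 members classed as bacterial homologues, 12 rose (26.1%) and 19 fell (41.3%) with pamidronate, beside 36.2% and 32.9% of all tested genes. Of 31 classed as mitochondria-specific 8 rose (25.8%) and 7 fell (22.6%). That class includes Mrps18a and Mrps18b. Counting both with the bacterial homologues, a grouping chosen after seeing the data, gives 14 higher and 19 lower of 48, and 6 and 7 of 29. No test was made of these differences between sets of members.

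**Figure D3:**
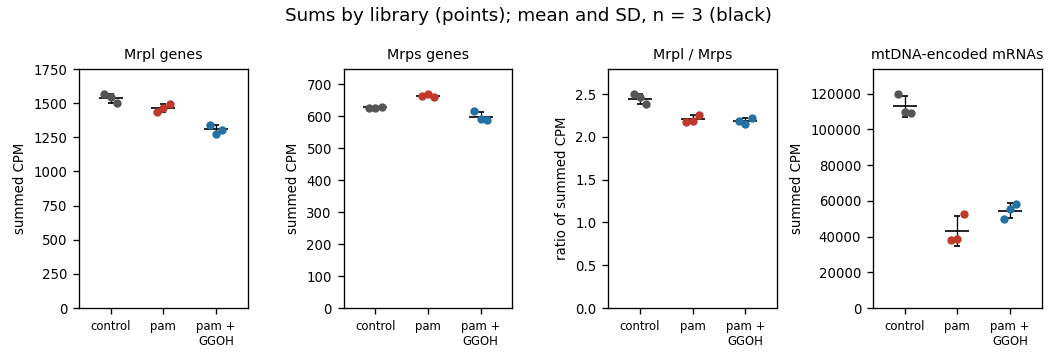
Summed CPM of the Mrpl genes and of the Mrps genes, their ratio, and the summed CPM of the mRNAs of the mitochondrial genome in each library, with group mean and SD in black; all y axes start at 0. The ratio is 2.38 to 2.50 in the controls and at most 2.26 in the treated libraries.

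When GGOH was added to pamidronate, 6 members were higher and 24 lower than with pamidronate alone, and 48 were not called. That is 7.69% higher and 30.8% lower of the members, where 25.2% and 23.6% of all tested genes were higher and lower. No member differed 2-fold, against 18% of all genes, and 41 members (52.6%) had groups that did not overlap, against 59.6%. The median was -0.08. Upper-quartile scaling gave 6 higher and 22 lower. Without pamidronate replicate 1 the members called higher numbered 3, and without pamidronate + GGOH replicate 3 those called lower numbered 14. This comparison uses the same pamidronate libraries as the one against the control, so values of both are given side by side and their likeness is not counted.

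Among the 6 that were higher, Mrps2 read 40.2, 45.0 and 42.3 CPM with GGOH added, against 24.3, 23.3 and 21.9 without it. The 2 groups were apart, at 1.83-fold (log2 0.88, SE 0.09, adjusted p = 4.09e-06). Its level remained 1.32-fold lower than in the control (log2 -0.40, adjusted p = 0.00175), a call that upper-quartile scaling ended (adjusted p = 0.065). Mrpl13 read 30.1, 34.1 and 37.1 CPM against 24.1, 24.6 and 22.3 (log2 0.51, SE 0.11, adjusted p = 0.00153). Against the control, Mrpl13 had log2 -0.23 and was not called (adjusted p = 0.0855). Mrpl28 read 18.3, 20.3 and 23.1 CPM against 13.9, 16.4 and 17.1 (log2 0.38, SE 0.12, adjusted p = 0.0171), and this call was lost without pamidronate replicate 1 (adjusted p = 0.092). Mrpl2 read 9.82, 14.3 and 15.9 CPM against 10.6, 8.41 and 9.23, with overlap between the groups (log2 0.50, adjusted p = 0.0202). Leaving out pamidronate + GGOH replicate 2 or 3, or pamidronate replicate 2 or 3, raised its adjusted p to between 0.05 and 0.093. Mrpl58 (log2 0.37) and Mrpl3 (log2 0.29) completed the 6, and both calls were lost when pamidronate replicate 1 was left out, that of Mrpl58 also without pamidronate replicate 2 or pamidronate + GGOH replicate 2.

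The lower members were led by Mrpl34, which read 27.6, 23.6 and 22.9 CPM with GGOH added, against 39.9, 44.1 and 44.8 with pamidronate alone. It was 1.74-fold lower (log2 -0.80, SE 0.10, adjusted p = 2.19e-05), and its level against the control was not called (log2 -0.18, adjusted p = 0.164). Mrpl32 was at 24.9 ± 3.28 against 40.5 ± 2.62 CPM (SD, n = 3; log2 -0.70, adjusted p = 0.000485). Mrpl43, a mitochondria-specific protein, was at 29.4 ± 3.33 against 46.4 ± 0.907 CPM (log2 -0.66, adjusted p = 9.21e-05). Of its exon bases, 33.4% overlap exons of other genes, Twnk, the mitochondrial helicase, among them. Twnk itself had log2 -0.39 with pamidronate and 0.47 with GGOH added, the opposite signs to the 0.39 and -0.66 of Mrpl43. Mrpl9 had log2 -0.60 (SE 0.09), and Mrps23 had -0.59 (SE 0.12).

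In 6 members (7.69%) all 3 libraries with GGOH added lay below the other 6 and both comparisons were called lower, as in 4.12% of all tested genes. These were Mrpl9, Mrpl15, Mrpl16, Mrpl48, Mrpl50 and Mrps23, a pattern described after the values were seen. The pattern depends on scaling and filter. Upper-quartile factors ended the call against the control for Mrpl9, Mrpl15, Mrpl48 and Mrps23, and so did the 5 CPM filter. Without a filter Mrpl15, Mrpl16 and Mrpl48 lost the call against pamidronate alone. Of the 6, only Mrpl50, a mitochondria-specific large-subunit protein, kept both calls in every alternative fit at the same threshold. It read 37.3, 37.3 and 38.8 CPM in the controls, 40.9, 38.5 and 39.3 with pamidronate and 27.0, 26.9 and 24.6 with GGOH added. Against pamidronate alone the level was 1.51-fold lower (log2 -0.60, SE 0.09, adjusted p = 7.03e-05) and against the control 1.45-fold lower (log2 -0.53, SE 0.09, adjusted p = 0.000205).

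**Figure D4:**
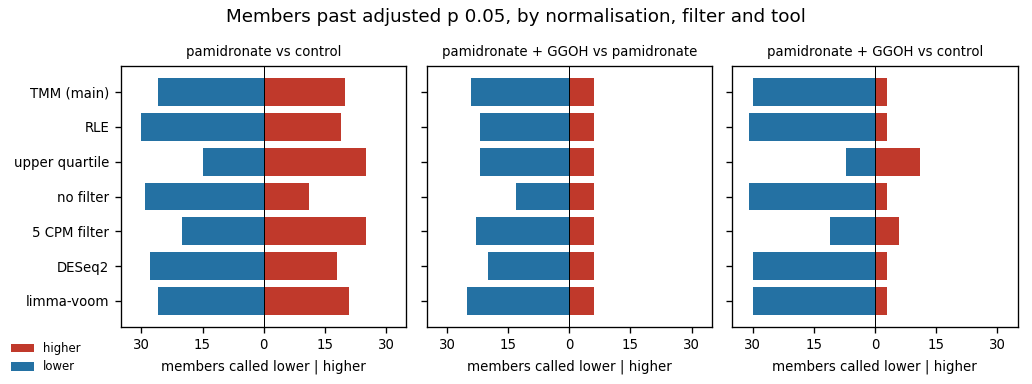
Number of members past an adjusted p of 0.05, higher to the right and lower to the left of 0, in each comparison (columns) under 7 settings (rows). The pamidronate + GGOH against control panel turns from 3 higher and 30 lower with TMM to 11 higher and 7 lower with upper-quartile factors.

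Pamidronate + GGOH against the control gave 3 higher and 30 lower members, 3.85% and 38.5%, where 26.3% and 26% of all tested genes were higher and lower. This balance rests on the scaling. Upper-quartile factors, which moved the median of all genes by 0.20, gave 11 higher and 7 lower, and the 5 CPM filter gave 6 higher and 11 lower of 75. Fitting the 2 groups alone gave 19 lower, and leaving out pamidronate + GGOH replicate 2 gave 17. The members' median was -0.20 with TMM and 0.00 with upper-quartile factors. The members' median minus that of all genes was -0.23 with the default filter, -0.08 with the 5 CPM filter and -0.74 without a filter. No member differed 2-fold from the control, against 21.5% of all genes, and 40 members (51.3%) had groups that did not overlap, against 58.2%.

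In every alternative fit tried at the same threshold, those with upper-quartile factors and the 5 CPM filter included, 10 members kept their call in this comparison, 3 higher (3.85%) and 7 lower (8.97%), where 16.8% and 15.7% of all tested genes kept a call. The 3 that stayed higher were Mrps10 (log2 0.56, SE 0.09), Mrpl27 (0.53, SE 0.12) and Mrps18b (0.41, SE 0.10), the same 3 genes that ranked highest with pamidronate alone. The 2 comparisons share the control libraries. Their levels with GGOH added were 43.7, 44.4 and 43.7 CPM for Mrps10, 13.6, 13.4 and 13.1 for Mrpl27, and 43.1, 42.6 and 37.9 for Mrps18b, above all controls in each case. The 7 that stayed lower were Mrpl28 (log2 -0.78), Mrpl52 (-0.66), Mrpl51 (-0.60), Mrpl50 (-0.53), Mrps21 (-0.53), Mrpl24 (-0.47) and Mrpl16 (-0.47), of which Mrpl16 and Mrpl24 were named after their values were seen. Mrpl52 read 28.8, 31.1 and 32.6 CPM with GGOH added, 27.9, 28.5 and 32.5 with pamidronate alone and 53.3, 42.5 and 50.3 in the controls. The 2 treated groups overlapped and both lay below the controls. By the same criterion 10 higher (12.8%) and 15 lower (19.2%) members kept their call in pamidronate against control, where 27.2% and 25.8% of all tested genes did. In pamidronate + GGOH against pamidronate 2 higher (2.56%) and 12 lower (15.4%) did, where the shares of all tested genes were 18.4% and 15.5%. The 2 higher ones were Mrps2 and Mrpl13.

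A set of 21 members (26.9%) was called in no comparison, as were 19.3% of all tested genes. Mrpl37 was among the steadiest, at 42.3 ± 2.36, 44.0 ± 1.56 and 42.0 ± 2.21 CPM in control, pamidronate and pamidronate + GGOH (SD, n = 3). Mrpl10 lay at 29.0 ± 1.81, 28.9 ± 0.348 and 26.7 ± 2.77 CPM. For Mrps12, at about 4 CPM, the SE of the log2 change was 0.22, so changes of that size, or of about 2 SE, could not be told from 0 at this depth.

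The particle also holds proteins without an Mrp symbol. Of 5 listed, Dap3, a GTP-binding small-subunit protein, fell with pamidronate from 79.9 ± 2.07 to 60.7 ± 5.11 CPM (SD, n = 3; log2 -0.40, adjusted p = 0.000746) and Aurkaip1 from 20.5 ± 2.04 to 13.3 ± 0.906 (log2 -0.63, adjusted p = 0.000252). Ptcd3 rose from 75.5 ± 6.46 to 88.7 ± 4.96 CPM (log2 0.23, adjusted p = 0.0478). Gadd45gip1 and Chchd1 were not called, with -0.16 and -0.18.

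Factors that build or use the mitochondrial ribosome also moved in both directions. So did the tested genes as a whole, of which 36.2% rose and 32.9% fell with pamidronate. Of 25 assembly and rRNA-modification factors, 9 rose and 6 fell with pamidronate, and their values spanned more than those of the ribosomal proteins. Mettl17, an assembly factor of the small subunit, rose from 20.1 ± 2.60 to 56.9 ± 6.54 CPM (SD, n = 3; log2 1.50, adjusted p = 5.88e-08). Noa1, a GTPase needed for the small subunit, fell from 36.3 ± 3.15 to 15.3 ± 1.63 CPM (log2 -1.25, adjusted p = 5.5e-07). Of 14 translation factors 4 rose (28.6%) and 5 fell (35.7%). The elongation factors Gfm1 and Tufm had log2 -0.75 and -0.62, and Gfm2, which recycles ribosomes, had 0.79. Of 17 mitochondrial tRNA synthetases 2 rose (11.8%) and 6 fell (35.3%). Of 14 genes of mitochondrial transcription and RNA handling 3 rose (21.4%) and 6 fell (42.9%), among them Tfam at -1.07 and Trmt10c at 1.30. Of 8 tested regulators of mitochondrial biogenesis 3 rose and 3 fell (37.5% each), and Myc went from 0.685 ± 0.322 to 77.5 ± 13.4 CPM. With GGOH added, Myc was at 12.7 ± 5.96 CPM.

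The other components of the respiratory system gave different balances. All 12 tested mRNAs of the mitochondrial genome, the templates of this ribosome, fell with pamidronate, with a median log2 of -1.74. With GGOH added, 7 of 12 were higher than with pamidronate alone. Their levels differed widely. In the controls mt-Co2, mt-Atp8, mt-Atp6, mt-Co3 and mt-Nd4l had means of only 3.04 to 6.30 CPM, and the others 2661 CPM or more. Both kinds count alike in the median and the counts. Those not called with GGOH added were mt-Co1, mt-Atp8, mt-Atp6, mt-Co3 and mt-Nd4l. The mRNA of cytochrome b, mt-Cytb, was at 13320 ± 514.7, 2092 ± 840.5 and 5422 ± 1040 CPM in the 3 groups (SD, n = 3). Of 79 tested nuclear genes of the oxidative phosphorylation complexes, 5 rose (6.33%) and 39 fell (49.4%) with pamidronate, with a median of -0.35. Among all tested genes 36.2% rose and 32.9% fell. Of 85 tested cytosolic ribosomal proteins, 6 rose (7.06%) and 5 fell (5.88%), with a median of 0.08. Their middle 50% spanned 0.23, against 0.70 for the mitochondrial ones. With GGOH added, 1 cytosolic ribosomal protein was higher (1.18%) and 44 were lower (51.8%) than with pamidronate alone. In that comparison 25.2% of all tested genes were higher and 23.6% lower. These lists stand beside the members as description, and their differences were not tested.

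**Figure D5:**
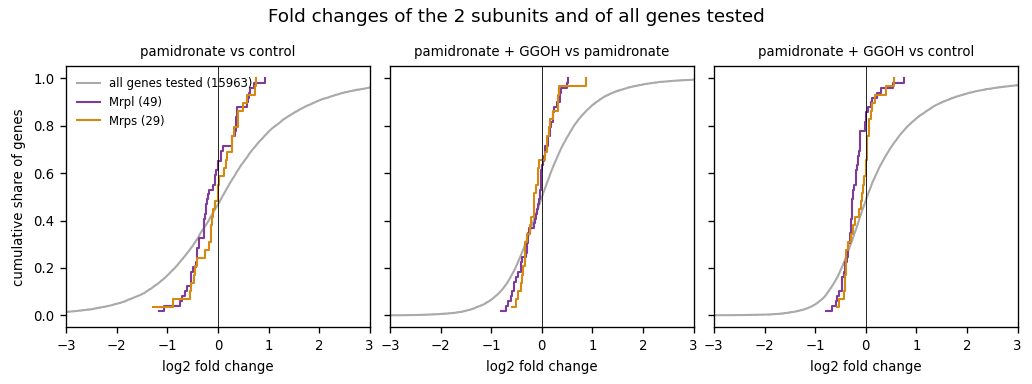
Cumulative share of genes (y axis) at or below each log2 fold change (x axis, cut off at both ends) for the 49 Mrpl genes, the 29 Mrps genes and all 15963 genes tested, in the 3 comparisons. Both subunits rise more steeply than all genes, and the curves of the subunits run close together.

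The genes whose profile over the 9 libraries was most like the members' mean profile were Gm26397 (Pearson r = 0.988), Clta (0.985), Bckdha (0.981), Irak1bp1 (0.981) and Tma7 (0.980). These values come from 9 libraries in 3 groups and share their scaling, so they are a description only. Clta, the clathrin light chain, read 116.9, 122.4 and 120.1 CPM in the controls, 98.3, 100.1 and 104.7 with pamidronate and 94.0, 84.1 and 85.1 with GGOH added.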

How the data were processed

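RNA of 9 samples was prepared with a total RNA kit that removes ribosomal RNA, from 300 ng each, and all carry 1 batch label. Per the submitters' processing notes the build was GRCm38, reads were trimmed with Trimmomatic 0.36, and DESeq is named without a role; aligner, counter and strand setting: not given in the sources used here. Raw counts were deposited by the authors for 49315 genes, of which 174 carry no symbol, together with TPM values, which equal count over length rescaled per library. The per-sample files repeat the counts (0 rows differ). Library pairs within a group differed by more than counting noise (chi-square per degree of freedom 4.00 to 37.2).

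Genes passing edgeR's filterByExpr (15963) were scaled with TMM and tested in 1 quasi-likelihood fit of 3 groups (edgeR 4.0.16, R 4.3.3, robust, 6 residual degrees of freedom), with Benjamini-Hochberg adjustment over all genes and a call at 0.05. The fit was checked on simulated data in which few genes differed between groups. Such a check does not cover the choice of scaling here, where 69.2% of tested genes were called with pamidronate. CPM values use TMM-scaled library sizes. SE is the log2 fold change over the root of the F statistic. The biological coefficient of variation was 0.127. The alternative settings were upper-quartile and RLE factors, a 5 CPM filter or none, DESeq2 1.42.0, limma-voom (limma 3.58.1), 2 groups alone, a replicate block, a 0.01 threshold and leaving out each library.

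The members and gene lists were chosen with earlier results of these data known. Named members were, per comparison, the 6 highest and 6 lowest called ones with at least 5 CPM and no overlap between groups, a fixed set by role, the TPM extremes of each subunit and the first members called nowhere; others are named for a count of 5 or fewer or where the text says so. Exon overlaps and neighbours come from GENCODE M21, in which 65 of 78 members had the same start and end. Mitochondrial rRNAs are not analysed here. Promoter windows come from RefSeq, GRCm38.p6.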

Additional observations from a re-analysis of the deposited data

How the results depend on the processing

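No member's call turned to the opposite direction in any setting. Scaling and filter decided the balance of calls: with upper-quartile factors pamidronate gave 15 lower members (main 26) and a median of 0.10 (main -0.09), and pamidronate + GGOH against control gave 11 higher, 7 lower and a median of -0.0019 (main 3, 30 and -0.20). With the 5 CPM filter the medians were 0.028 and -0.082, pamidronate + GGOH against control gave 6 higher and 11 lower, and the large minus small subunit median with pamidronate was -0.14 (main -0.19; -0.12 with subunits by particle). Without a filter the medians were -0.18 with pamidronate and -0.032 for GGOH added, with 11 members higher and 13 lower in these comparisons. Removing the mitochondrial genes, Malat1 and Gm26917, chosen after seeing the data, gave medians of -0.14 and -0.035. Fitting 2 groups alone gave 19 lower against control with GGOH added. At a 0.01 threshold, GGOH added gave 3 higher and 14 lower against pamidronate and 13 lower against control. The cause of these shifts was not tested.

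Leaving out 1 library at a time, pamidronate gave 13 to 19 members higher, with medians of -0.17 to -0.085; GGOH added gave 3 to 8 higher and 14 to 25 lower, with medians of -0.10 to -0.030; and pamidronate + GGOH against control gave 17 to 31 lower. The large minus small subunit median ranged from -0.27 to -0.13 with pamidronate, from -0.010 to 0.14 for GGOH added (main 0.10) and from -0.19 to -0.11 against control (main -0.17). The lowest counts were without control replicate 2 or 3, pamidronate replicate 1, and pamidronate + GGOH replicates 3 and 2, in that order.

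Same-numbered libraries did not deviate together (correlations of -0.224 to 0.204), so the numbers were not used as pairs. The replicate block gave 21 higher and 26 lower members with pamidronate, 6 and 21 with GGOH added, and 3 and 30 against control. With 3 libraries a group, the SE was 0.22 for Mrps12, at about 4 CPM, and 0.18 for Mrpl46, at group means of 4.4 to 5.6 CPM.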
